A study of Mus musculus with 8 samples.

Results

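The subunits of the BAF complex were followed through ES cell neuralization on 14 probes for 10 genes, out of 55681 probes and 36163 gene names on the arrays. The genes were chosen by name and comprised the ATPases Smarca4 and Smarca2, the core subunits Smarcb1, Smarcc1 and Smarcc2, the Smarcd1, Smarcd2 and Smarcd3 family, and the actin-like proteins Actl6a and Actl6b. Every member was found on the arrays. Smarca4 had 2 probes, Smarcc1 had 4, and each of the other 8 genes had 1. The cells were E14Tg2A, a mouse ES cell line of strain 129/Ola, grown undifferentiated in serum and LIF (ES, 0 days of in vitro differentiation, DIV). Epiblast-like aggregates (ELA, 2 DIV) were floating aggregates in a serum-free minimal medium with N2 and B27, neural progenitor cells (NPC, 6 DIV) had been replated on poly-ornithine and laminin, and neural precursors (NPC/Neu, 10 DIV) had been replated again without B27. All 4 stages came from this line, and the labels give no further genetic change and no drug. At each stage 1 one-color array measured total RNA and 1 array measured Ago–RNA, the RNA that co-precipitated from the cytosolic fraction with an antibody against all Argonaute proteins. Each array carried RNA pooled from 3 experiments, and each immunoprecipitation experiment pooled 3 to 10 culture samples, so no value here has a replicate and no p-value is given. How precise the values are is limited by this small number of arrays.

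BAF (mammalian SWI/SNF) complexes use ATP to slide or evict nucleosomes and so open or close chromatin. Each complex holds either Smarca4 (Brg1) or Smarca2 (Brm) as its motor, and several other positions can be filled by alternative paralogues. The assembly of ES cells is known to be built on Smarca4, Smarcc1 and Actl6a, whereas complexes of neural cells take up Smarca2 and Smarcc2, and neurons exchange Actl6a for Actl6b. Argonaute proteins carry miRNAs to target mRNAs, and the neural miRNAs miR-9-3p (miR-9*) and miR-124 are known to repress Actl6a.

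The miRNA sequences below are shown because the subunit exchange is tied to miR-9 and because miR-294 belongs to a miRNA cluster typical of ES cells. The study also transfected miR-181c-5p and miR-425-5p together with a fluorescent reporter carrying the Smarca4 3′ UTR. It reported that the miRNAs tested in this way lowered reporter expression in ELA cells. The sequences were taken from RefSeq (GRCm38.p6), with the seed (bases 2 to 8) in capitals. All 5 seeds differed.
miR-9-3p: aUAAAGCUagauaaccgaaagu
miR-9-5p: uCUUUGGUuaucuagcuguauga
miR-294-3p: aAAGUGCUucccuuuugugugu
miR-181c-5p: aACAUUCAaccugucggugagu
miR-425-5p: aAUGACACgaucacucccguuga

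The 7-base complements of these seeds were searched on the sense strand of each member's longest annotated 3′ UTR (GENCODE M1, mm9). Actl6a held 1 word for miR-9-3p (AGCTTTA), at bases 38 to 44 of its UTR of 366 bases. This word was present in 2.65% of the 1695 UTRs whose length was within 20% of that of Actl6a, and in 9.83% of all 19915 UTRs. Smarcd2 held 2 words for miR-9-5p (ACCAAAG), found in 7.43% of the 2504 UTRs of like length and 11.4% of all UTRs, and 1 for miR-9-3p. The miR-9-3p word also occurred 2 times in Smarcc1 and once in Smarca2, both of which have longer UTRs. It was present in 17.8% of UTRs as long as that of Smarcc1 and 7.2% of those like Smarca2. Smarca4 held 3 words for miR-181c-5p (TGAATGT), which 15.3% of the 2697 UTRs of like length and 14.4% of all UTRs contained, and Actl6a held 1. Smarca4 held no word for miR-425-5p (GTGTCAT, 8.21% of all UTRs), which occurred once in Smarcb1. The word for miR-294-3p (AGCACTT, 13.4% of all UTRs) occurred once each in Smarcc1 and Smarcc2. None of the 5 words was found in Smarcd1, Smarcd3 or Actl6b. The stretches with the words for Actl6a, Smarcd2 and Smarca4 are shown with the word in capitals, since the largest ΔE between consecutive stages were those of Smarca4 and Smarcd2, described below, and since Actl6a is the known target of miR-9-3p. A match is a description of the sequence and does not show a site that was used, and no match says only that these letters are not in the window.
Actl6a, miR-9-3p word: cacctcaacgtctgtAGCTTTAg
Smarcd2, miR-9-5p word: accagacatttccaaACCAAAGg
Smarcd2, miR-9-5p word, downstream: ttcctggcctttctaACCAAAGt
Smarcd2, miR-9-3p word: caccctccactccccAGCTTTAg
Smarca4, miR-181c-5p word: ccatgccctcacataTGAATGTg
Smarca4, miR-181c-5p word, next: atagacatttttgtgTGAATGTt
Smarca4, miR-181c-5p word, last: tgtgaatgttttgccTGAATGTg

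Because paralogues are compared, the probes were matched to transcripts of the same genome build (mm9). Of the 14 probes, 12 matched a coding transcript of their own gene over all 60 bases, and none matched another gene exactly. The probe of Smarcd3 matched at 59 of 60 bases. That of Smarcd1 covers only 59 genomic bases, in its 3′ UTR, and was not matched in full. Its best match without gaps to a transcript of its own gene was 44 of 60 bases. The closest stretch in a paralogue differed at 10 to 33 bases. It differed at 15 bases for the Actl6b probe and at 17 for the Actl6a probe. The first 30 bases of these coding-sequence probes are shown because the Actl6 pair rests on them, and those of 2 neighbouring Smarcc1 probes because their values diverged. These stretches have no capitals.
Actl6a, coding probe: ggcagtgtgatcgtagcaggaggaaacacg
Actl6b, coding probe: tctgattccccttacgatgaacaggtagct
Smarcc1, upstream coding probe: tgaagaaagaaaaatcaagtccttggtagc
Smarcc1, coding probe across an intron: ctggagactataatggacagagagaaagag

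Levels are log2 signals after normexp background correction and quantile normalization over the 8 arrays, and they are not compared between probes or genes. Ago enrichment (E) is the log2 signal in Ago–RNA minus that in total RNA of the stage, and ΔE is its change from one stage to the next. The error between spots was taken as the SD of the same difference between repeated spots of 399 probes (the spot SD). It was 0.13 to 0.15 for E and 0.18 to 0.21 for ΔE. For a change of total RNA it was 0.13 to 0.18, and for a change of Ago–RNA 0.13 to 0.17. The spot SD does not include the spread between cultures. Nor does it include the error of immunoprecipitation, labelling and hybridization, which all spots of an array share. A change is called at 2-fold, a log2 difference of 1. The scanner software rated 53.4% to 61.2% of spots per array as well above background. The ES Ago–RNA array was the brightest, with an upper quartile of spot signals of 3039 against 1060 to 1774 elsewhere. On the total RNA arrays 4 of 5 naive pluripotency genes were down 2-fold or more in ELA and 5 of 5 in NPC and NPC/Neu, and of 3 primed epiblast genes Fgf5 alone passed 2-fold in ELA, with a rise of 2.81. All 3 neural progenitor genes were up by 1.86 to 2.27 in NPC, and all 3 neuron genes measured were up 2-fold in NPC/Neu, Tubb3 by 4.06. Of markers of other cells, Foxa2 was up by 3.35 in NPC/Neu, and the astrocyte genes Gfap and Aqp4 changed by less than 2-fold in both neural stages. In these bulk samples, fewer cells expressing an mRNA and less of it per cell cannot be told apart.

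From ES to NPC/Neu, total RNA of 5 of the 10 subunits rose 2-fold or more and that of 1 fell, where 11.3% of all gene names rose and 11.3% fell (16% each among gene names well above background on an array compared). Smarca2 rose by 4.68 (log2, 25.6-fold), Smarcd3 by 3.92 (15.2-fold), Smarcc2 by 2.66 (6.31-fold) and Smarca4 by 1.15 (2.21-fold), with a spot SD of 0.15. With processed signals scaled to the 75th percentile Smarca4 changed by 0.56, below 2-fold, and 4 members rose and 2 fell. Actl6b rose at least 2.57-fold, since it was not well above background in ES. Smarcd2 was the one to fall, by 1.78 (3.43-fold). The remaining 4, Smarcb1, Smarcc1, Smarcd1 and Actl6a, changed by 0.72, -0.12, -0.10 and -0.52. The median over the 10 was 0.93 and that over all genes -0.02.

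**Figure D1:**
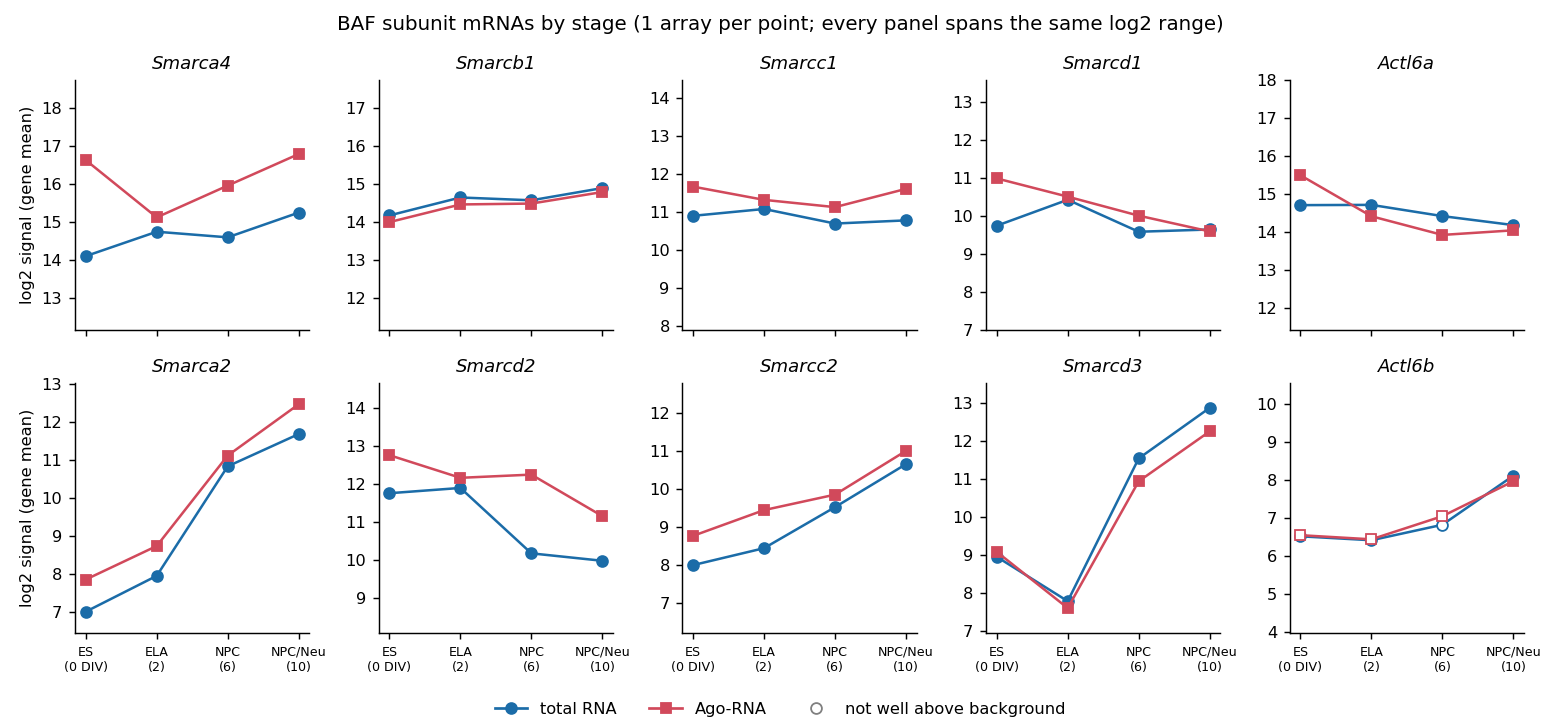
Log2 signal (y axis, mean over the probes of a gene) of the 10 subunits at the 4 stages (x axis, days of in vitro differentiation) in total RNA (blue circles) and Ago–RNA (red squares), 1 array per point; open symbols were not well above background, and panels span equal ranges but start at different levels. Smarca2, Smarcc2 and Smarcd3 ended 2.66 to 4.68 above their ES level in total RNA, and Smarcd2 1.78 below it.

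The largest total RNA steps of Smarca2, Smarcd2 and Smarcd3 fell in the ELA–NPC transition. In ES–ELA 0 members rose 2-fold and 1 fell, beside 3.04% and 3.09% of all gene names. Smarca2, at 0.94 in this step, passed 2-fold under 4 of the alternative settings, with values of 1.18 to 1.95. In ELA–NPC 3 rose and 1 fell, beside 7.13% and 6.62%. In the last transition, NPC to NPC/Neu, 3 rose and 0 fell, beside 3.65% and 2.69%. Consecutive transitions share an array, so they are not independent of each other.

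The ATPase Smarca4, on mm9 at chr9:21420613-21508674 (plus strand), was present at all stages. Its 3′ UTR probe had log2 total RNA signals of 15.71 in ES, 16.27 in ELA, 16.13 in NPC and 16.97 by NPC/Neu. Its coding-sequence probe, which all 5 annotated coding transcripts contain, read 12.49, 13.22, 13.05 and 13.52 in the same order. Both were lowest in ES and highest in NPC/Neu. The Ago–RNA signals of the 3′ UTR probe were 18.53, 16.69, 17.74 and 18.96, and those of the coding probe 14.72, 13.55, 14.17 and 14.61. Here ELA was the lowest stage on both probes, while ES and NPC/Neu were high.

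Averaged over both probes, E of Smarca4 was 2.53 in ES, 0.38 in ELA, 1.36 in NPC and 1.54 by NPC/Neu. In ES it lay at percentile 99.9 of the 25318 gene names well above background on an ES array. The ΔE of the ES–ELA transition was -2.15 (spot SD 0.20), at percentile 0.122 of 26130 gene names. By probe it was -2.41 on the 3′ UTR and -1.89 on the coding sequence, and both probes met the criteria for release stated in the study's methods, an E of 2 or more followed by one of 0.5 or less with a ΔE of at least 1.5 in size. Total RNA rose by 0.64 in the same step while Ago–RNA fell by 1.51. The later recovery was larger on the 3′ UTR probe, which gained 1.57 in E between ELA and NPC/Neu where the coding probe gained 0.76. In NPC/Neu the probes thus stood at 1.99 and 1.09.

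Smarca2, the alternative ATPase (chr19:26679650-26852811, plus strand), had log2 total RNA signals of 7.00 in ES, 7.94 in ELA, 10.82 in NPC and 11.67 by NPC/Neu at its only probe, in the 3′ UTR. The Ago–RNA signals were 7.84, 8.73, 11.11 and 12.46. Both series climbed at every step, with the steepest rise of total RNA, 2.88, between ELA and NPC. Its ES to NPC/Neu change lay at percentile 99.3 of 25628 gene names and ranged from 4.43 to 6.22 over the alternative settings. Ago–RNA rose almost as far, by 4.61 against 4.68, and E was 0.85, 0.79, 0.28 and 0.78. Over the alternative settings, however, ΔE from ES to NPC/Neu ranged from -0.89 to 0.46 and E in ES from 0.80 to 1.72. The ΔE of ES–ELA was -0.06, within the spot SD, beside the -2.15 of Smarca4, but it ranged from -0.69 to 0.00 over the alternative settings and reached -0.69 with quantile normalized processed signals.

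The log2 ratio of Smarca2 to Smarca4 rose by 3.53 in total RNA from ES to NPC/Neu, an 11.6-fold shift. Both mRNAs gained, so the shift came with the larger gain of Smarca2. In Ago–RNA the ratio rose by 4.45 (21.9-fold). The 2 kinds of RNA took different steps. In total RNA the ratio moved by 0.30 in ES–ELA and by 3.03 in ELA–NPC, whereas in Ago–RNA it moved by 2.39 and 1.54. The spot SD of such a difference was 0.19 to 0.25 in these steps.

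Smarcb1 (chr10:75359514-75384362, minus strand), a core subunit without a paralogue among the members, had the steadiest Ago enrichment. Its log2 total RNA signals were 14.16, 14.63, 14.56 and 14.88 from ES to NPC/Neu, and its Ago–RNA signals were 13.99, 14.45, 14.47 and 14.78. The 2 series ran side by side, and E stayed between -0.18 and -0.09. No change of Smarcb1 between consecutive stages reached 0.5 in either kind of RNA.

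Smarcc1 (chr9:110034541-110142682, plus strand), a scaffold subunit of the complex, gave different answers at its 4 probes. A coding probe at chr9:110116027-110116086 had log2 total RNA signals of 11.27, 11.56, 10.79 and 10.80, and a coding probe just downstream that spans an intron had 10.09, 10.36, 9.52 and 9.47. Both were lower in the neural stages, by 0.47 and 0.62 from ES to NPC/Neu. The 3′ UTR probe of the long isoforms went the other way, from 13.29 over 13.52 and 13.77 to 14.06, a gain of 0.77. The probe in the 3′ UTR of a short isoform, Smarcc1-004, stayed between 8.75 and 8.99. The mean of the 4 probes changed by -0.12.

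Ago enrichment split the Smarcc1 probes in another way. E of the upstream coding probe was 1.29 in ES, 0.67 in ELA, 0.89 in NPC and 1.78 by NPC/Neu, and E of the long-isoform 3′ UTR probe was 1.00, 0.59, 0.92 and 1.99. These 2 probes fell and recovered together. The coding probe across the intron read 0.87, -0.11, 0.08 and -0.20, and that of the short isoform -0.08, -0.18, -0.16 and -0.25. In NPC/Neu, then, 2 probes stood about 2 log2 units above the other 2, many times the spot SD of 0.13. The upstream coding probe is contained in an annotated transcript, Smarcc1-005, that the probe across the intron does not match. The part of isoforms in this split was not tested. The gene mean of E, 0.77, 0.24, 0.43 and 0.83, therefore stands for probes that differ.

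**Figure D2:**
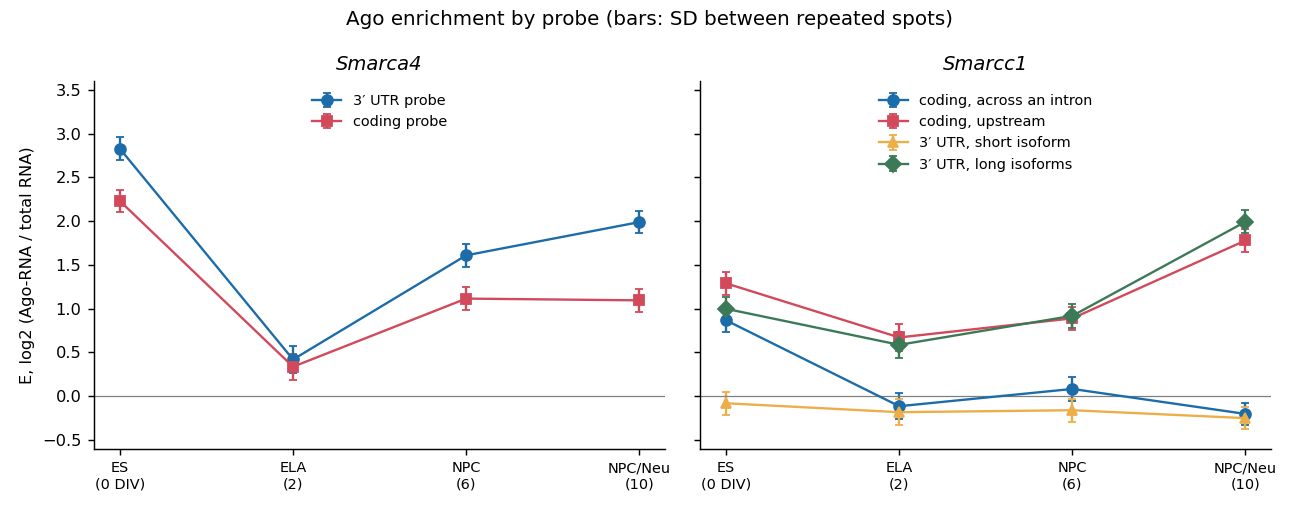
Ago enrichment E (y axis, log2 of Ago–RNA over total RNA) at the 4 stages (x axis) for each probe of Smarca4 (left) and Smarcc1 (right), with the SD between repeated spots as bars. Both Smarca4 probes dropped below 0.5 in ELA, and the 4 Smarcc1 probes separated into 1.78 and 1.99 against -0.20 and -0.25 in NPC/Neu.

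Smarcc2 (chr10:127896292-127927229, plus strand), the paralogue of Smarcc1, had log2 total RNA signals of 8.01, 8.45, 9.53 and 10.67 and Ago–RNA signals of 8.78, 9.46, 9.86 and 11.02. Both rose at each step. Total RNA passed 2-fold in ELA–NPC (1.08) and again in the last step (1.13). E was 0.77, 1.00, 0.33 and 0.35. It was the only member whose ΔE in ES–ELA was positive, at 0.23, which is close to the spot SD of 0.20. The log2 ratio of Smarcc2 to Smarcc1 rose by 2.78 (6.86-fold) in total RNA and by 2.30 in Ago–RNA from ES to NPC/Neu with the mean of the Smarcc1 probes. With only the brightest Smarcc1 probe, that of the long-isoform 3′ UTR, the gains were 1.89 and 0.48.

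**Figure D3:**
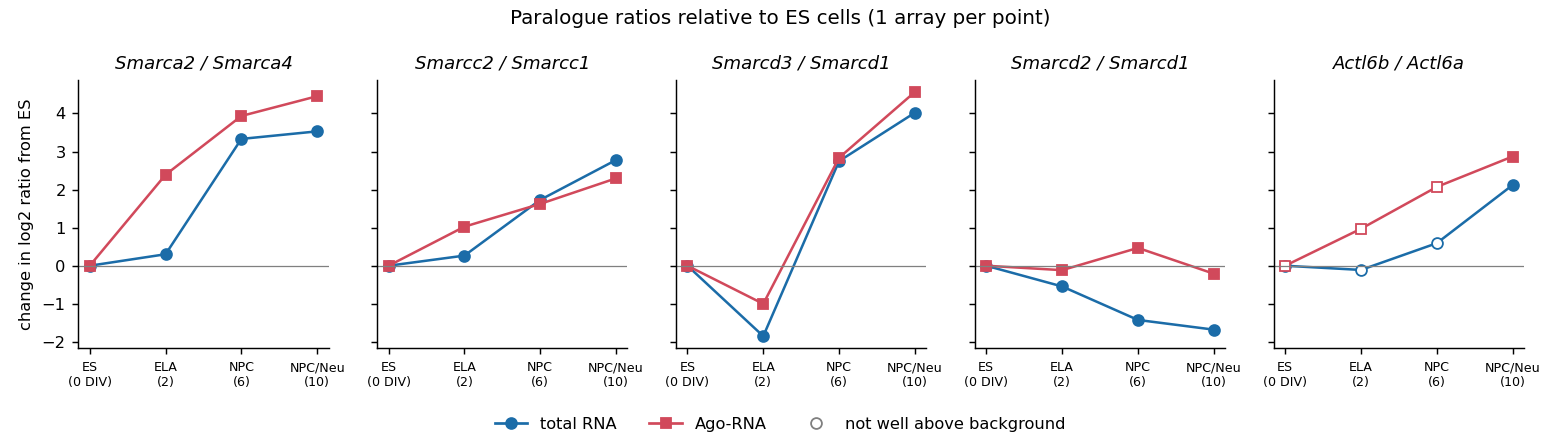
Change of the log2 ratio of 5 paralogue pairs relative to ES cells (y axis) at the 4 stages (x axis) in total RNA (blue circles) and Ago–RNA (red squares), 1 array per point, open where Actl6b was not well above background. In NPC/Neu the total RNA ratios of Smarca2, Smarcc2 and Smarcd3 to their paralogues were up by 3.53, 2.78 and 4.02, and that of Smarcd2 to Smarcd1 was down by 1.68.

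The Smarcd proteins (BAF60 subunits) link the complex to transcription factors, and each complex takes up one of them. Smarcd1 (chr15:99532718-99544426, plus strand) had log2 total RNA signals of 9.73 in ES, 10.42 in ELA, 9.57 in NPC and 9.63 by NPC/Neu. ELA stood above the other 3 stages, which lay within 0.16 of each other. Its Ago–RNA signals fell at every step, from 10.98 over 10.50 and 10.00 to 9.58. E accordingly was 1.25 in ES and 0.08, 0.42 and -0.05 afterwards, and its ΔE from ES to NPC/Neu, -1.30, was the lowest of the 10 members.

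Smarcd2 (chr11:106124493-106134286, minus strand) was the member whose total RNA fell past 2-fold over the series. Its log2 total RNA signals were 11.76, 11.90, 10.18 and 9.98, a drop of 1.72 in ELA–NPC. The Ago–RNA signals were 12.76, 12.17, 12.25 and 11.16, and so hardly moved in that step (0.08) but fell by 1.09 in the next. E was 1.00 in ES, 0.27 in ELA, 2.07 in NPC and 1.18 by NPC/Neu. The ΔE of ELA–NPC, 1.81, lay at percentile 99.8 of 25693 gene names, and the probe met the study's criteria for loading onto Ago, the mirror image of release. It was the 1 member with a ΔE of 1 or more in this transition, beside 1.89% of all gene names. The 2 miR-9-5p words shown above lie in its 3′ UTR, and their use was not tested.

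Smarcd3 (chr5:24096636-24107830, minus strand) was the member with the largest single step. Its log2 total RNA signals were 8.96 in ES, 7.79 in ELA, 11.55 in NPC and 12.88 by NPC/Neu, and its Ago–RNA signals were 9.09, 7.61, 10.95 and 12.26. It fell by 1.17 in ES–ELA and then rose by 3.76 (13.5-fold) in ELA–NPC, at percentile 99.5 of 24899 gene names. Ago–RNA followed but gained less, 3.17 against 3.92 from ES to NPC/Neu, so that E went from 0.13 in ES to -0.60 in NPC and -0.62 in NPC/Neu, the lowest of the members in both. The log2 ratio of Smarcd3 to Smarcd1 first moved by -1.85 in total RNA and then by 4.60 and 1.27, a rise of 4.02 (16.2-fold) in all. In Ago–RNA the rise was 4.57. The ratio of Smarcd2 to Smarcd1 fell by 1.68 in total RNA but changed by -0.21 in Ago–RNA, about its spot SD of 0.19.

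Actl6a (BAF53a, chr3:32607468-32625890, plus strand) is the actin-like subunit of dividing cells. Its log2 total RNA signals were 14.70, 14.71, 14.41 and 14.18, which fell by 0.52 and did not reach 2-fold, although the change was -1.18 with processed signals scaled to the 75th percentile. Its Ago–RNA signals were 15.49, 14.41, 13.92 and 14.04, which fell by 1.45. Most of that came in ES–ELA, where Ago–RNA fell by 1.08 while total RNA changed by 0.01. E was 0.79 in ES, -0.30 in ELA, -0.50 in NPC and -0.14 by NPC/Neu. At each later stage it was thus below its ES value. The 3′ UTR of Actl6a holds the miR-9-3p word shown above, and a use of that word was not tested.

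Actl6b (BAF53b, chr5:137994745-138010810, plus strand), the neuronal counterpart, was well above background on both NPC/Neu arrays and on none of the other 6. Its log2 total RNA signals were 6.51, 6.40 and 6.81 in ES, ELA and NPC and 8.10 in NPC/Neu. The Ago–RNA signals were 6.54, 6.43, 7.04 and 7.96. The last stage stood clear of the earlier ones in both. Against the higher of the dimmest signal well above background and the probe's own value, total RNA was at least 2.45-fold higher in NPC/Neu than in NPC, and Ago–RNA at least 1.89-fold. E was -0.15 in NPC/Neu, about 1 spot SD (0.13), and has no meaning at the stages where both arrays were dim. The ratio of Actl6b to Actl6a rose at least 3.70-fold in total RNA and at least 6.42-fold in Ago–RNA from ES to NPC/Neu. Neither fold is a measured value for ES, where Actl6b only has a bound.

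Over all members, E was 1 or more for 3 genes in ES (Smarca4, Smarcd1 and Smarcd2), 1 in ELA (Smarcc2), 2 in NPC (Smarca4 and Smarcd2) and 2 in NPC/Neu (the same genes). The shares of all gene names were 6.56%, 2.43%, 3.59% and 7.34%, and in ES 9.37% of those well above background. Smarcd2 in ES and Smarcc2 in ELA lay at the limit (1.00 each), and the next gene in ES was Smarca2 at 0.85. Smarcd2 in ES fell just short of 1 under 2 alternative settings, and Smarca2 in ES passed it under 4. No member had an E of -1 or lower at any stage, where 7.34%, 2.12%, 3.89% and 7.78% of all gene names did. The median E of the 10 was 0.78, 0.16, 0.31 and 0.15 from ES to NPC/Neu, against medians between 0.00 and 0.03 over all gene names. These medians of the 10 include Actl6b, also at the stages where it was dim. Argonaute signal above the binding threshold of the study's methods (log2 7.80 here) was found for 9 members in ES, 8 in ELA, 9 in NPC and 10 by NPC/Neu. Actl6b was below it at the first 3 stages and Smarcd3 in ELA. Counted by probe, 13, 12, 13 and 14 of the 14 member probes exceeded it from ES to NPC/Neu. About 44% of all probes did so at each stage (44.1% to 44.3%).

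**Figure D4:**
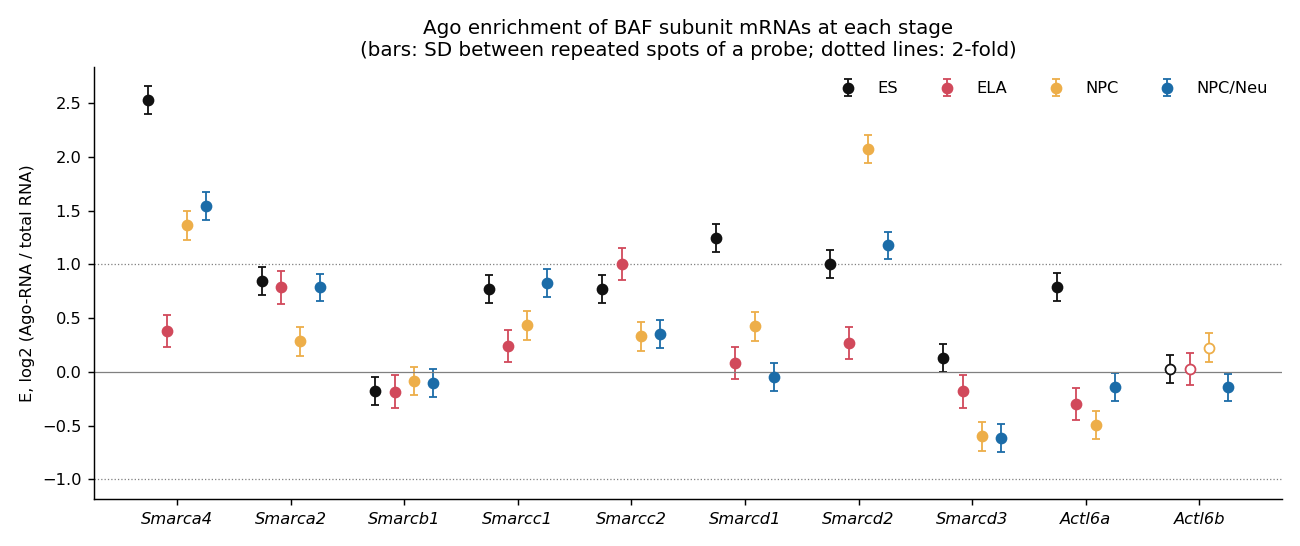
Ago enrichment E (y axis, log2 of Ago–RNA over total RNA, gene means) of the 10 subunits (x axis) in ES (black), ELA (red), NPC (yellow) and NPC/Neu (blue), with the SD between repeated spots as bars, open where both arrays were dim and lines at 2-fold. Smarca4 in ES (2.53) and Smarcd2 in NPC (2.07) were the highest values, and no member reached -1.

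In the ES–ELA transition ΔE was -1 or lower for 3 members, Smarca4 (-2.15), Smarcd1 (-1.16) and Actl6a (-1.09), where 4.41% of all gene names were and 6.05% of those well above background. With processed signals scaled to the 75th percentile Actl6a was at -0.87 and the count was 2. Smarcc1, known like Smarca4 and Actl6a from the ES cell complex, had a gene mean of -0.53 and was not called. The paralogues Smarca2, Smarcd3, Smarcd2 and Smarcc2 had values of -0.06, -0.31, -0.73 and 0.23. Actl6b has no measured value here, since its 4 arrays were dim. ΔE was lower than 2 spot SD below 0 for 5 members, within 2 spot SD for the other 5, the dim Actl6b among them, and higher for 0. The median over all members, the dim Actl6b included, was -0.42 and that of all gene names -0.00. On the Ago–RNA arrays themselves 3 members (Smarca4, Smarcd3 and Actl6a) fell 2-fold or more in this step and 0 rose, beside 6.11% and 6.33% of all gene names. Smarca4 and Actl6a lost this call with processed signals scaled to the 75th percentile, and Smarca2 rose past 2-fold under 3 alternative settings and Smarcc2 under 1. From ES to NPC/Neu 4 rose and 3 fell in Ago–RNA, beside 11.3% and 11.8%. All these comparisons use the ES arrays, of which the Ago–RNA array was the brightest. The part of that array in the ES values was not tested.

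A wider list of 21 other BAF subunits, of which 20 were found by name on 34 probes, was counted in the same way. In total RNA 8 of the 20 rose 2-fold or more from ES to NPC/Neu and 0 fell, beside the 11.3% in each direction given above. They were the zinc finger subunits Bcl11b (3.49) and Bcl11a (1.51), Bcl7a (2.07), the neuronal subunit Ss18l1 (CREST, 1.86), Smarce1 (1.52), the bromodomain protein Brd9 (1.35), and the large subunits Arid1b (1.23) and Pbrm1 (1.08). For Bcl11a, 1 probe gained 3.01 while the other, well above background on 1 array, changed by 0.01. The probes of Smarce1 (0.97 and 2.06), Arid1b (0.79 to 1.64) and Pbrm1 (0.68 to 1.82) lay on both sides of 2-fold.

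Further subunits are known to be exchanged in neurons. Of the PHD finger proteins, Phf10, of progenitor complexes, fell by 0.57 from ES to NPC/Neu. Dpf2 gained 0.71. Dpf1 first fell by 0.89 in ELA–NPC and rose by 1.28 in the last step. Dpf3 was at least 1.42-fold higher in NPC/Neu than in ES, where it was not well above background. Ss18, the paralogue that Ss18l1 replaces, fell by 0.64. Of these 6 switching subunits Ss18l1 was the one called at 2-fold between ES and NPC/Neu, with a bound in place of a value for Dpf3. In Ago enrichment, ΔE of ES–ELA was -1 or lower for 2 of the 20, the DNA-binding subunit Arid1a (-1.42) and Ss18 (-1.07), beside 4.41% of all gene names. Both Arid1a probes gave nearly the same ΔE (-1.41 and -1.43), whereas those of Ss18 were -0.68 and -1.46. The gene mean of E of Arid1a was 1.82 in ES, 0.40 in ELA, 1.07 in NPC and 1.17 by NPC/Neu. The stages were in the same order as for the mean of Smarca4, but single probes differed in the last step. From NPC to NPC/Neu, E of the Arid1a probes went from 1.16 to 1.61 and from 0.98 to 0.74. E of the Smarca4 probes went from 1.61 to 1.99 (3′ UTR) and from 1.11 to 1.09 (coding). Bcl7a went the other way, with a ΔE of 1.20. The median ΔE of the 20 was -0.27.

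**Figure D5:**
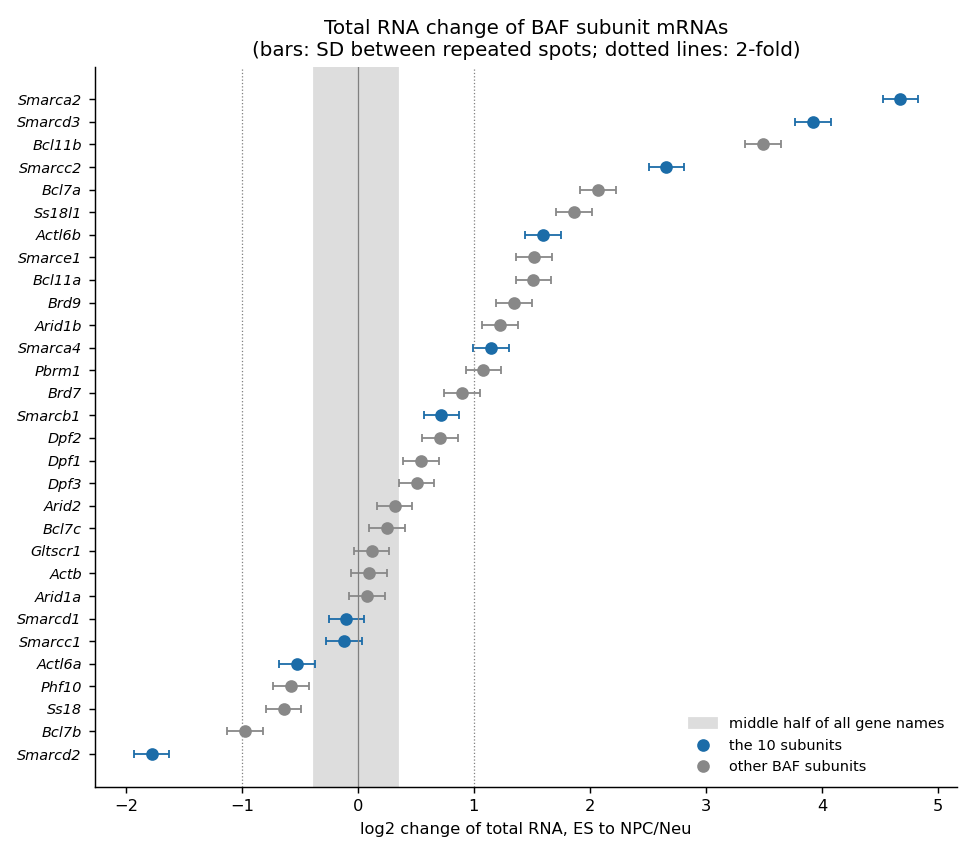
Log2 change of total RNA from ES to NPC/Neu (x axis) for the 10 subunits (blue) and 20 other BAF subunits (grey), sorted by value (y axis), with the SD between repeated spots as bars, 2-fold as dotted lines and the interquartile range of all gene names as a grey band. Smarca2 (4.68) was at the top and Smarcd2 (-1.78) at the bottom.

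The genes whose pattern over the 8 arrays was nearest to those of Actl6b and Smarca4 were found by Euclidean distance between profiles centred on their own mean, among 27992 gene names. For Actl6b they were E130114P18Rik (distance 0.22), Nkain1 (0.32) and Sybu (0.36), beside a median distance of 2.18. All 3 stood highest on the NPC/Neu arrays, which follows from their choice by distance. Actl6b itself was not well above background on the ES, ELA and NPC arrays. For Smarca4 they were Scrib (0.50), Myo18a (0.50) and Safb (0.55), beside a median of 2.84. In these, as in Smarca4, each Ago–RNA array was above the total RNA array of its stage, by least in ELA. This likeness also follows from the choice by distance.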

How the data were processed

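Single-color Agilent mouse arrays (8, all on 1 slide with 1 scan time) were compared, 1 per condition. The authors deposited spot intensity from Feature Extraction (version 10.7.3.1 per the file headers, 9.1 per the labels), not normalized between arrays. The labels give 3 pooled experiments per array. The study's methods name background correction and quantile normalization with limma. Here mean and background intensity were corrected with limma 3.58.1 in R 4.3.3 (normexp, offset 50) and 125 to 523 irregular spots per array were left out, both choices of this work, and log2 values were quantile normalized over 8 arrays. This removes differences in overall RNA recovery. Repeated spots and then the probes of a gene were averaged. The binding threshold lies 3 SD above the mean of the lower of 2 fitted Gaussians (mclust 6.1.1). Other values used Python 3.11.15, numpy 2.4.6 and pandas 2.3.3. Without replicates no test was run. A call means 2-fold.

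All members are named with each probe, and other subunits where they changed 2-fold in total RNA from ES to NPC/Neu or had a ΔE of -1 or lower in ES–ELA, with the 6 switching subunits in any case. Members and lists were chosen with earlier results of these data known. Alternatives were offsets of 16 and 0, the processed intensity scaled to the 75th percentile or quantile normalized, separate quantile normalization of Ago–RNA and total RNA arrays, a filter on dim probes, the median or the brightest probe of a gene, irregular spots kept, and a 1.5-fold limit. The procedure was tested on simulated data. Control immunoprecipitations were not used here, and 1 listed marker gene is not reported here.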

Additional observations from a re-analysis of the deposited data

Results flagged for a closer look

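The Ago enrichment of Actl6a had opposite signs in ES and NPC. Its only probe, in the coding sequence, gave an E of 0.79 in ES and -0.50 in NPC, with 1 array pair at each stage. Its total RNA signal differed by 0.29 between the stages and its Ago–RNA signal by 1.57. The difference was not tested, since no stage has a replicate, and its sign was the same under every alternative setting tried.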

How the results depend on the processing

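The 2 settings with processed signals replace the normexp correction, and that with the 75th percentile replaces the quantile normalization as well. The other settings changed 1 choice. No member value called at 2-fold turned its direction in any of them. Of 384 such values 377 stayed at 2-fold, and of 1425 member values in all 1202 moved by less than 1 spot SD. These totals include values that could not move. For genes with a single probe, the median and the brightest probe return the main value, and the dim-probe filter only keeps or drops it. With processed signals scaled to the 75th percentile, 86 of 160 values moved by less than 1 spot SD and 39 of 43 stayed at 2-fold. A count is given below where it moved by over 1.5 times and a ratio where it moved by over 1 spot SD. Smaller moves included 2 members with an E of 1 or more in ES with irregular spots kept, 4 members up in total RNA with the dim-probe filter or processed signals scaled to the 75th percentile, 2 members with a ΔE of -1 or lower in the latter, and 7 other subunits up with the median of the probes. The log2 ratios below are ES to NPC/Neu changes. The fitted value for Actl6b to Actl6a (2.12 in total RNA, 2.87 in Ago–RNA), with Actl6b dim in ES, became 2.61 and 3.32 with offset 16, 2.99 and 3.67 with offset 0, 5.99 and 5.16 with processed signals scaled to the 75th percentile, and 5.10 and 5.16 with processed signals quantile normalized. For Smarca2 to Smarca4 (3.53 and 4.45) the same 4 settings gave 3.96 and 4.68, 4.23 and 4.80, 5.18 and 5.54, and 5.11 and 5.18. Separate normalization of the 2 kinds of RNA gave 3.19 and 4.71, and the brightest probe 4.19 in Ago–RNA. For Smarcc2 to Smarcc1 (2.78 and 2.30) offset 0 gave 3.07 in total RNA, 75th percentile processed signals 3.18 and 3.07, quantile normalized processed signals 3.35 and 2.61, separate normalization 2.54 and 2.55, and the brightest probe 1.89 and 0.48. For Smarcd3 to Smarcd1 (4.02 and 4.57) 75th percentile processed signals gave 3.78 and 5.23, and in Ago–RNA offset 0 gave 4.76, quantile normalized processed signals 4.86 and separate normalization 4.85. Members down in total RNA numbered 2 with processed signals scaled to the 75th percentile, Smarcd2 and Actl6a. Members with an E of 1 or more in ELA numbered 2 with quantile normalized processed signals, and with separate normalization they numbered 5 in ES and 4 in NPC/Neu. Other subunits with a ΔE of -1 or lower in ES–ELA numbered 1 under separate normalization. A 1.5-fold limit gave 7 members above it in E in ES, 2 in ELA and 4 in NPC/Neu, and 7 other subunits by ΔE. Unless shown by the setting's own construction, the cause was not tested. Processed signals scaled to the 75th percentile shifted the median of all genes by -0.60 for E in ES, -0.31 in ELA and -0.38 in NPC/Neu, by 0.33, 0.12 and -0.24 for ΔE of the 3 consecutive transitions, by 0.15, -0.39 and 0.15 for their total RNA change and by 0.47, -0.33 and -0.17 for that of Ago–RNA. No other setting shifted it by over 0.1. Small E values of Smarcb1, and those of Smarcd3 in ES, Smarcd1 in NPC/Neu, Actl6b in NPC, and Actl6a in ELA and NPC/Neu, changed sign in some setting. So did the total RNA changes of Smarcc1 and Smarcd1 from ES to NPC/Neu. The dim-probe filter leaves no value for the Actl6b ratio. No paired analysis was possible because each condition has 1 array, and leaving out a replicate was impossible for the same reason.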
